A study of Mus musculus with 3 samples.

Results

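The insulin-like growth factor (IGF) binding proteins studied here were the 6 members *Igfbp2*, *Igfbp3*, *Igfbp4*, *Igfbp5*, *Igfbp6* and *Igfbp7*, taken by gene symbol from the single-cell count tables of mouse cells. They are 6 of the 27755 genes listed for the D10 culture and for the E14.5 tail, and 6 of the 25936 genes listed for D6 PM, and each member had at least 1 UMI (unique molecular identifier, marking 1 captured transcript) in each library. Together they held 0.241% of all UMIs of the D10 culture, 0.172% of the E14.5 tail and 0.257% of D6 PM. The D10 culture is the whole monolayer obtained from mouse embryonic stem cells carrying the ScxGFP tendon reporter, which had been directed to paraxial mesoderm (PM) with an activator of WNT signaling and an inhibitor of BMP receptors and then received TGFβ1, the Hedgehog agonist SAG and FGF2 from D6 to D10. D6 PM, labelled as embryoid bodies, is the end of the PM step of the same protocol, before TGFβ1, SAG and FGF2 were added, and the stem cells had been kept on mouse fibroblast feeders. The E14.5 tail was cut from the mouse embryo. All 3 were depleted of dead cells. Which stem cell line, and how many embryos, gave each library is not given in the sources used here. There was 1 library for each, so that no difference between conditions could be tested, and every interval in parentheses is a 95% interval that covers counting error only.

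IGF1 and IGF2 are secreted growth factors that signal through the IGF1 receptor, and most of the IGF in tissue fluid and blood is held by binding proteins. A binding protein can keep IGF away from its receptor, or store it in the matrix until a protease cuts the binding protein and lets the ligand go. IGFBP2 to IGFBP6 bind IGF with high affinity. IGFBP3 and IGFBP5 can form a larger circulating complex with the acid-labile subunit encoded by *Igfals*, IGFBP4 and IGFBP5 are cut by the protease PAPP-A, IGFBP3 and IGFBP5 by PAPP-A2, and IGFBP6 prefers IGF2. IGFBP7 binds IGF weakly and is known as a secreted matrix protein of blood vessels. IGF signaling drives growth of muscle, cartilage and tendon.

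Median depth was 5622 UMIs over the 7821 cells of the culture, 13512 over the 2052 of the tail and 8171 over the 5954 of D6 PM. Clusters are the authors' codes, named here from marker genes. In the culture the tendon-like cluster (code 1, 2964 cells) and the proliferating tendon-like cluster (code 2, 1353 cells) held *Scx*, at 2410 CPM (UMIs of a gene for every 1000000 UMIs of the cluster) in code 1, against 1472 CPM in the tendon-like cluster of the tail (685 cells). The cartilage-like cluster (code 4, 855 cells in the culture and 241 in the tail) held *Col2a1* at 2271 and 4282 CPM. This cluster also held *Scx*, at 1852 CPM in the culture and 1905 CPM in the tail. *Dcn* was at 662 CPM in this cluster of the culture, against 36.3 CPM in the tail. The authors integrated the culture with the tail on variable genes and used the tail as the reference for the codes, so every comparison by code rests on that assignment. Code 13 held 43 cells of the culture and none of the tail. Code 3 is pluripotent-like in the culture and epithelium-like in the tail, and was not compared between them. By its cell counts, 1088 and 49, code 3 matches cluster 2 of the paper, which the paper's text describes as fibrocartilage. Code 4 matches cluster 3 of the paper in the same way. The names used here therefore depart from the authors' annotation. Most of D6 PM was not somite-like, since 2539 of its 5954 cells were endoderm-like and 700 somite-like. Libraries shared 3 to 10 cell barcodes in each pair.

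All 6 members had a promoter entry in RefSeq (GRCm38.p6). The build behind the counts is not named in the sources used here, so the sequences are given as context only. In RefSeq *Igfbp2* and *Igfbp5* are next to each other on chromosome 1, and *Igfbp3* lies beside *Igfbp1* on chromosome 11. The 250 bases before the start are shown for *Igfbp3*, *Igfbp5* and *Igfbp7*, the 3 members whose level was at least 2-fold lower in the cartilage-like than in the tendon-like cluster of the culture. Capitals mark the E-box CANNTG, the motif of basic helix-loop-helix factors such as SCX. Each is written 5′ to 3′ on the minus strand.
Igfbp3, chr11:7213924-7214173: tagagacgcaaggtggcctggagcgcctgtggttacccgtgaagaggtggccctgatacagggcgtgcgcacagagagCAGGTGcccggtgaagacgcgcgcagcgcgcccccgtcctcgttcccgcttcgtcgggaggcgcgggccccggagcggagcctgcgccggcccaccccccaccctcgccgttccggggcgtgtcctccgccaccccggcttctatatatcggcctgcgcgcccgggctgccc
Igfbp5, chr1:72874866-72875115: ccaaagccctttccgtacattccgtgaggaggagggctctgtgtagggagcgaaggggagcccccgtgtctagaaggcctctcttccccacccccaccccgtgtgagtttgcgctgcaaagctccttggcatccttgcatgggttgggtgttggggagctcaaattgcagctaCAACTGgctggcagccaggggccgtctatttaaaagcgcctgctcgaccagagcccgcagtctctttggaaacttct
Igfbp7, chr5:77408046-77408295: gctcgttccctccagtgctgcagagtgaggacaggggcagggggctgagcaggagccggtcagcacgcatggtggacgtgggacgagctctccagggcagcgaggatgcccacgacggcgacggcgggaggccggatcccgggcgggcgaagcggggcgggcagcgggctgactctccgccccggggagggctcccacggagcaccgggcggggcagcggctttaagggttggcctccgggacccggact
The windows of *Igfbp3* and *Igfbp5* each hold 1 E-box, CAGGTG and CAACTG, and that of *Igfbp7* holds none. An E-box is found in 66.2% of all 32851 promoter windows of this length, so holding one is common. The windows of *Igfbp2* at both of its listed starts, *Igfbp4* and *Igfbp6* also hold 1 E-box each. The letters TATAAA, on either strand, were in the windows of *Igfbp4* and *Igfbp6* and in 12.4% of all windows. The Hedgehog response motif GACCACCCA and the SMAD motif GTCTAGAC, searched on both strands because the culture received SAG and TGFβ1, were in none of the members' windows, and in 0.225% and 0.167% of all windows. The *Igfbp3* window holds 32 CpG dinucleotides and that of *Igfbp7* 26, against a median of 6 over all windows. *Igfbp4* has 22, *Igfbp2* 14 and 11 at its listed starts, *Igfbp5* 10 and *Igfbp6* 7.

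**Figure D1:**
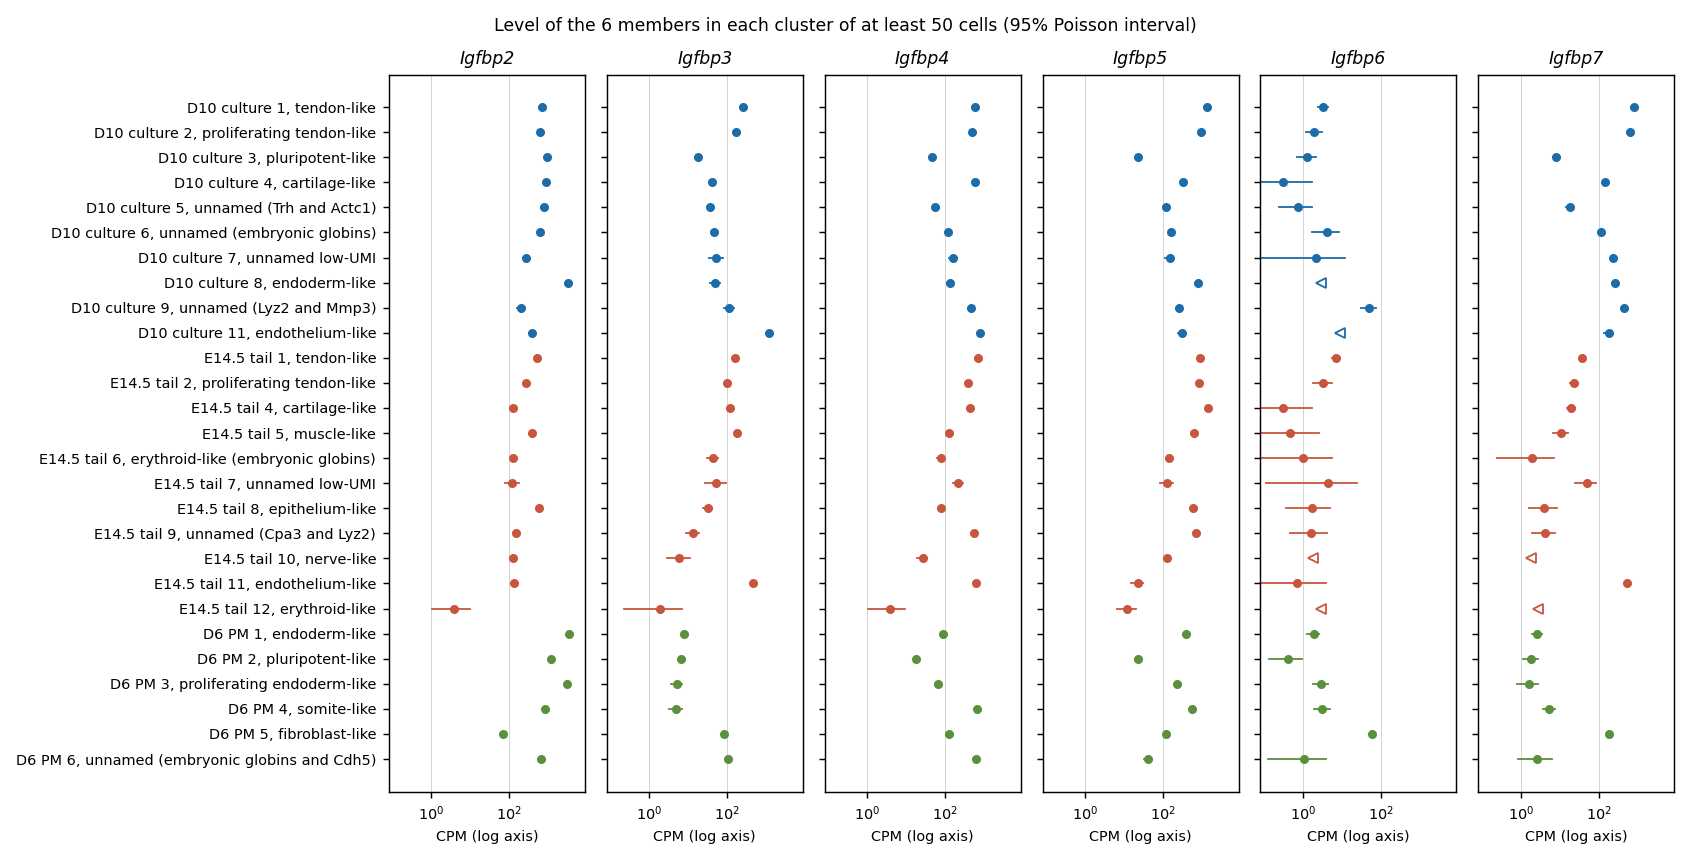
Level of each member in CPM (log axis) in each cluster of at least 50 cells, with its 95% Poisson interval, in blue for the D10 culture, red for the E14.5 tail and green for D6 PM. Open triangles stand at the level of 3 UMIs for clusters with none, and intervals that run below the axis end at its left edge. *Igfbp7* was at 825 CPM in tendon-like cells of the culture and 36.7 CPM in those of the tail, and *Igfbp2* was at 3414 and 3552 CPM in the endoderm-like clusters of the culture and of D6 PM.

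*Igfbp2*, which prefers IGF2 and is abundant in embryonic tissues, was found in nearly all clusters. Its level was highest in endoderm-like cells, at 3414 CPM (3302 to 3529) in the culture and 3552 CPM (3524 to 3579) in D6 PM. In the culture the pluripotent-like cluster followed at 978 CPM, then the cartilage-like cluster at 879 CPM, the cluster led by *Trh* and *Actc1* at 782 CPM and the tendon-like cluster at 721 CPM. The cluster with embryonic globins (647 CPM) and the proliferating tendon-like cluster (637 CPM) did not differ beyond counting error. In the tail the epithelium-like cluster of code 8 had 595 CPM, tendon-like cells 529 CPM, muscle-like cells 385 CPM and proliferating tendon-like cells 282 CPM. In the tail 6 further clusters, among them the cartilage-like (126 CPM), nerve-like (130 CPM) and endothelium-like (138 CPM) clusters, lay at 121 to 147 CPM, with no neighbors in that order differing beyond counting error. The cartilage-like cluster thus stood above the tendon-like cluster in the culture and far below it in the tail. In D6 PM the order ran from endoderm-like over proliferating endoderm-like (3043 CPM), pluripotent-like (1182 CPM), somite-like (826 CPM) and globin-holding cells (669 CPM) to fibroblast-like cells (70.5 CPM), and all neighbors differed beyond counting error.

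*Igfbp3*, the main IGF carrier of blood, was highest in endothelium-like cells of both libraries that hold them. Its level there was 1198 CPM (1082 to 1322) in the culture and 469 CPM (434 to 506) in the tail. Tendon-like cells had 252 CPM in the culture and 158 CPM in the tail, and proliferating tendon-like cells 169 and 100.5 CPM. In the tail, muscle-like cells (182 CPM) were above tendon-like cells. Cartilage-like cells had 123 CPM in the tail and 41.2 CPM in the culture. In D6 PM only 2 clusters were above 10 CPM, the one with embryonic globins and *Cdh5* (106 CPM) and fibroblast-like cells (81.9 CPM), and the other 4 had 4.77 to 7.70 CPM, with no neighbors in that order differing beyond counting error.

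*Igfbp4*, an inhibitor of IGF action that PAPP-A inactivates, was among the higher in tendon-like and endothelium-like cells of both libraries that hold them. In the culture its level was 807 CPM in endothelium-like, 610 CPM in cartilage-like and 583 CPM in tendon-like cells, the last 2 not differing beyond counting error. In the tail the levels were 696 CPM in tendon-like, 642 CPM in endothelium-like and 435 CPM in cartilage-like cells. The tail cluster led by *Cpa3* and *Lyz2* had 575 CPM. Somite-like cells of D6 PM had 662 CPM and the globin-holding cluster 644 CPM, with no difference beyond counting error, against 92.1 CPM in endoderm-like and 17.9 CPM in pluripotent-like cells. Nerve-like cells of the tail (26.7 CPM) and pluripotent-like cells of the culture (46.9 CPM) were low, and erythroid-like cells of code 12 had 3.77 CPM.

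*Igfbp5*, which binds extracellular matrix, was highest in tendon-like cells of the culture (1394 CPM, 1376 to 1412) and in cartilage-like cells of the tail (1504 CPM, 1462 to 1546) among clusters of at least 50 cells. The 38 glia-like cells of the tail had 2176 CPM. Tendon-like cells of the tail had 937 CPM, proliferating tendon-like cells 949 CPM in the culture and 866 CPM in the tail, and cartilage-like cells of the culture 328 CPM. Somite-like cells of D6 PM had 558 CPM. Pluripotent-like cells were low in both libraries that hold them, at 23.5 CPM in the culture and 22.4 CPM in D6 PM. In the nerve-like cluster of the tail a single cell gave 158 of the 218 UMIs.

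*Igfbp6*, which prefers IGF2, was near its detection limit in most clusters. It stood out in 2, at 59.2 CPM (53.1 to 65.7) in fibroblast-like cells of D6 PM and 50.1 CPM (31.4 to 75.9) in the 53 culture cells led by *Lyz2* and *Mmp3*, the latter from 22 UMIs. In all other clusters of at least 50 cells it was between 0 and 7.11 CPM, the highest being tendon-like cells of the tail. The 2 clusters were also those with the highest level of *Pappa*, at 85.3 and 84.3 CPM, and held *Dcn* at 901 and 681 CPM respectively. Genes of white blood cells were found in both, *Tyrobp* at 84.8 and 512 CPM, *C1qa* at 4.58 and 34.2 CPM and *Ptprc* at 5.1 and 11.4 CPM. The list of 5 such genes summed to 109.5 CPM, with none at 0, and 588 CPM, with 1 at 0. In the tail cluster led by *Cpa3* and *Lyz2*, *Tyrobp* was at 549.8 CPM, *C1qa* at 157 CPM, *Ptprc* at 94.6 CPM and *Dcn* at 1505 CPM. That cluster had *Igfbp6* at 1.64 CPM and *Pappa* at 12.7 CPM. The part of white blood cell genes in the *Igfbp6* level of these clusters was not tested.

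*Igfbp7* was high in tendon-like cells of the culture, at 825 CPM (811 to 839), and in proliferating tendon-like cells, at 648 CPM (633 to 664). The tail had a different order, in which endothelium-like cells were highest at 556 CPM (518 to 597), tendon-like cells had 36.7 CPM (33.1 to 40.7) and proliferating tendon-like (23.1 CPM) and cartilage-like cells (19.96 CPM) did not differ beyond counting error. In the culture, endothelium-like cells had 185 CPM and did not differ beyond counting error from their neighbors in the order, the cluster of low UMI counts (235 CPM) and the cartilage-like cluster (146 CPM). In D6 PM it was at 191 CPM in fibroblast-like cells and at 1.57 to 5.26 CPM in the other 5 clusters. Nerve-like cells and the erythroid-like cells of code 12 of the tail had no *Igfbp7* UMI. The floor of 3 UMIs stands at 1.78 and 2.82 CPM in these clusters. The erythroid-like cells of code 6 had 2 UMIs.

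Whether cells made in the dish match their counterparts in the embryo was addressed by comparing clusters of the same code. In tendon-like cells *Igfbp7* was 22.4-fold (20.3 to 25.0) higher in the culture than in the tail, from 13684 UMIs against 372. The other 4 members that passed the detection filter (found in 10% or more of the cells of 1 of the 2 clusters) differed by less than 2-fold, with ratios of 1.36 for *Igfbp2*, 1.60 for *Igfbp3*, 0.838 for *Igfbp4* and 1.49 for *Igfbp5*. Thus 1 of 5 members was at least 2-fold higher, against 5.76% of all 10418 genes tested, and none was at least 2-fold lower, against 13.6%. The median ratio of all genes was -0.21 on the log2 scale here. Divided by it, the ratios of these 4 members ran from 0.966 to 1.85 and the split of all called genes moved from 600 higher and 1420 lower to 800 higher and 1082 lower. *Igfbp6* did not pass the filter in any comparison. Its ratio here was 0.466 (0.322 to 0.672), from 55 UMIs against 72, and 0.292 after thinning to 3000 UMIs per cell. In proliferating tendon-like cells *Igfbp7* was 28.1-fold (23.0 to 34.5) and *Igfbp2* 2.26-fold (2.13 to 2.41) higher in the culture, so 2 of 5 members were higher against 5.5% of all genes, and none lower against 13.6%. *Igfbp3*, *Igfbp4* and *Igfbp5* had ratios of 1.68, 1.24 and 1.10 there. Divided by the median ratio of all genes, -0.18 on the log2 scale, all called genes split into 826 higher and 1210 lower in place of 618 and 1525.

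The share of cells with *Igfbp7* differed as well. After each cell was thinned to 3000 UMIs, 67.5% (65.6 to 69.3) of 2595 tendon-like cells of the culture had an *Igfbp7* UMI, against 5.46% (3.87 to 7.44) of 678 in the tail. Without thinning the shares were 71.4% and 14.01%. Clusters chosen after their low *Igfbp7* level had been seen, whose shares are therefore a minimum and not an independent background, gave 1.67% in pluripotent-like cells of the culture, with a median depth of 10369.5 UMIs, and 0 of 137 in nerve-like cells of the tail, with a median depth of 11811 UMIs and an upper bound of 2.66%. Tendon-like cells had median depths of 4918.5 UMIs in the culture and 13463 in the tail. In the tail 1 cell gave 52 of the 372 *Igfbp7* UMIs. Among tendon-like cells of the culture 67.7% (65.7 to 69.5) of those with a UMI of *Scx* and 65.6% (59.1 to 71.8) of those without had an *Igfbp7* UMI. In the tail the shares were 2.43% (0.897 to 5.21) of 247 cells with *Scx* and 7.19% (4.94 to 10.1) of 431 without. Of the 5 endothelial markers fixed for this work, none was above 50 CPM in either tendon-like cluster, and their summed level was 44.7 CPM in the culture and 31.0 CPM in the tail. The 5 smooth muscle and pericyte genes summed to 1008 CPM in the culture and 631 CPM in the tail, none of them at 0, with *Acta2* at 400 and 277 CPM and *Tagln* at 499 and 167 CPM, but *Myh11* at 4.4 and 53.6 CPM and *Rgs5* at 12.1 and 29.0 CPM. Their part in the *Igfbp7* difference was not tested.

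**Figure D2:**
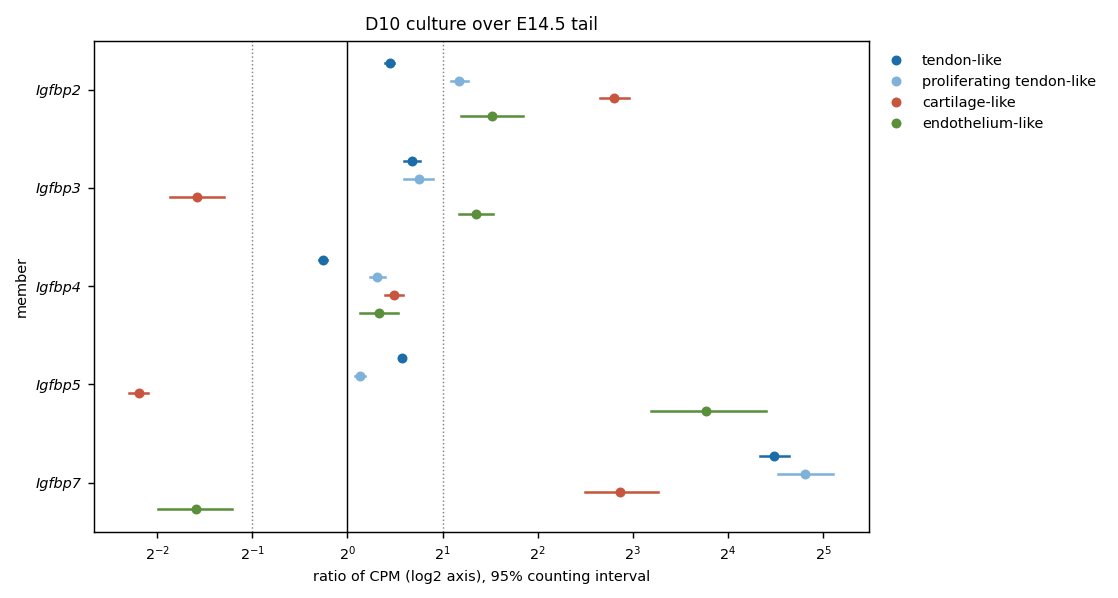
Ratio of CPM, D10 culture over E14.5 tail (log2 axis), for 5 members in 4 clusters, with 95% counting intervals. The solid line marks 1 and dotted lines 2-fold. *Igfbp7* was 22.4-fold and 28.1-fold higher in the tendon-like clusters and 0.332 of the tail in the endothelium-like cluster, and *Igfbp4* stayed within 2-fold in all 4.

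In cartilage-like cells 4 of 5 members passed 2-fold between culture and tail, in both directions. *Igfbp2* was 6.99-fold (6.31 to 7.77) and *Igfbp7* 7.29-fold (5.63 to 9.58) higher in the culture, 2 members against 4.86% of all 9986 genes tested. *Igfbp7*, in 24.8% of culture and 9.96% of tail cells, passed the detection filter only through the culture, where it was higher. *Igfbp5* was 4.58-fold (4.29 to 4.90) and *Igfbp3* 2.99-fold (2.46 to 3.65) lower, 2 members against 13% of all genes. *Igfbp4* had a ratio of 1.403. The median ratio of all genes was -0.18 on the log2 scale, and division by it changed none of the members' calls and moved the split of all genes from 485 higher and 1300 lower to 669 and 1002. At 3000 UMIs per cell, 79.4% of cartilage-like cells in the culture and 20.4% in the tail had an *Igfbp2* UMI, and 32.9% and 72.1% an *Igfbp5* UMI. The tendon marker *Dcn* differed in the same cells, as given above, whereas *Scx* was at 1852 CPM in the culture and 1905 CPM in the tail. The tendon marker list summed to 7862 CPM in the culture, with 1 of its 12 genes at 0, and 4514 CPM in the tail, with none at 0. The 7 cartilage markers, all above 50 CPM in both, summed to 5664 and 10784 CPM. Their part in these differences was not tested. In the tail, *Igfbp3* was more frequent in cartilage-like cells with a UMI of *Scx* (25.2% of 147 cells, 18.4 to 33.0) than in those without (4.30% of 93, 1.18 to 10.6), a split made after the data had been seen. In these cells the shares with and without *Scx* were 25.2% and 12.9% for *Igfbp2*, 75.5% and 55.9% for *Igfbp4*, 76.9% and 64.5% for *Igfbp5* and 5.44% and 3.23% for *Igfbp7*. In tendon-like cells of the tail the order was the same for *Igfbp3*, at 29.6% (23.9 to 35.7) and 20.2% (16.5 to 24.3). It was also the same for *Igfbp5*, at 59.1% and 52.7%. The order was reversed there for *Igfbp2* (48.6% and 52.2%), *Igfbp4* (82.2% and 83.1%) and, as given above, *Igfbp7*. Tendon-like cells of the culture also differed in order from cartilage-like cells of the tail. Their shares were 64.9% and 80.6% for *Igfbp2*, 35.5% and 46.7% for *Igfbp3*, 78.1% and 78.4% for *Igfbp4* and 70.8% and 64.3% for *Igfbp5*. Proliferating tendon-like cells of the culture had *Igfbp2* in 68.2% with and 84.5% without *Scx*. In cartilage-like cells of the culture the shares with and without *Scx* were 78.2% and 87.1% for *Igfbp2* and 10.3% and 4.71% for *Igfbp3*. There they were 77.7% and 81.2% for *Igfbp4*, 32.4% and 36.5% for *Igfbp5* and 23.7% and 11.8% for *Igfbp7*.

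The comparison of cartilage-like with tendon-like cells gave a different picture in each library. In the culture, *Igfbp3*, *Igfbp5* and *Igfbp7* were lower in cartilage-like cells by 6.13-fold (5.17 to 7.32), 4.25-fold (3.998 to 4.52) and 5.67-fold (5.18 to 6.22), so that 3 of 5 members were at least 2-fold lower, against 3.36% of all 7077 genes tested. *Igfbp2*, with a ratio of 1.22 (1.17 to 1.27), and *Igfbp4*, with 1.05 (0.998 to 1.10), stayed within 2-fold, and no member was higher, against 1.54% of all genes. In the tail only *Igfbp2* passed 2-fold, being 4.21-fold (3.81 to 4.66) lower in cartilage-like cells. That is 1 of 5 members against 6.28% of all 10654 genes for lower and 0 against 3.65% for higher. The ratios of the others in the tail were 0.781 for *Igfbp3*, 0.625 for *Igfbp4*, 1.61 (1.55 to 1.66) for *Igfbp5* and 0.543 (0.411 to 0.707) for *Igfbp7*. With the mean of per-cell CPM *Igfbp7* was called lower in the tail as well. *Igfbp2* and *Igfbp5* thus lay on opposite sides of 1 in the 2 libraries, and the intervals of their ratios did not hold 1 in either. The 5 smooth muscle and pericyte genes were also lower in cartilage-like than in tendon-like cells, summing to 119 against 1008 CPM in the culture and 102 against 631 CPM in the tail, with none at 0. In the culture *Acta2* was at 20.1 against 400 CPM and *Tagln* at 44.8 against 499 CPM. Their part in these differences was not tested. Whether the members were among the genes that set the clusters was not tested.

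**Figure D3:**
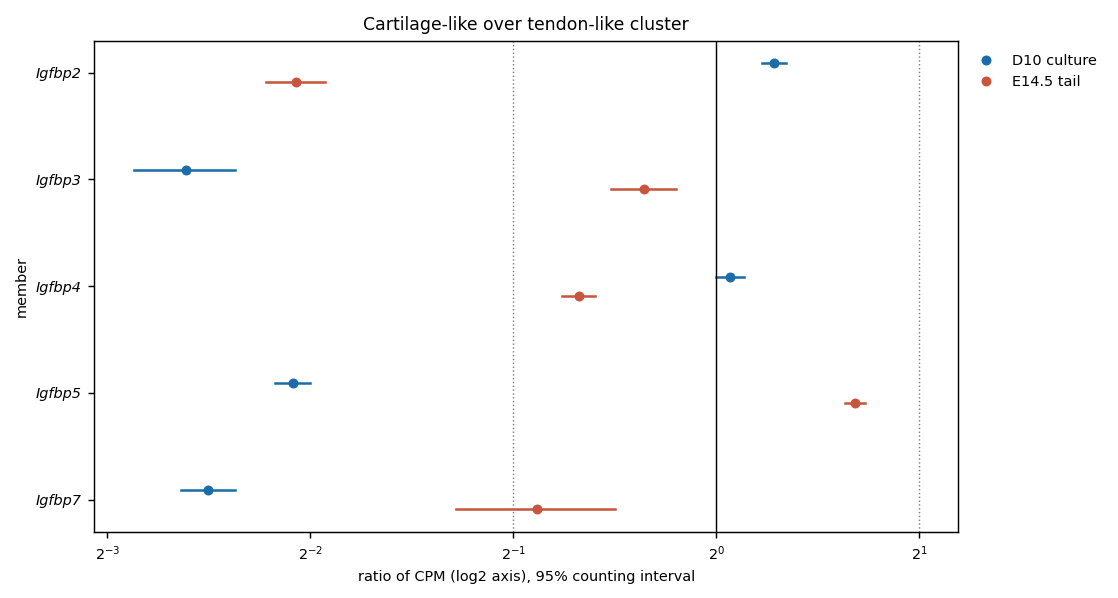
Ratio of CPM, cartilage-like over tendon-like cluster (log2 axis), in the D10 culture (blue) and the E14.5 tail (red), with 95% counting intervals. *Igfbp2* was at 1.22 in the culture and 0.238 in the tail, and *Igfbp5* at 0.235 in the culture and 1.61 in the tail.

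In endothelium-like cells, 58 in the culture and 71 in the tail, *Igfbp5*, at 309 against 22.6 CPM, was 13.7-fold (9.12 to 21.1), *Igfbp2* 2.87-fold (2.28 to 3.60) and *Igfbp3* 2.55-fold (2.25 to 2.90) higher in the culture. These are 3 of 5 members against 13.9% of all 10194 genes. *Igfbp5*, in 32.8% of culture and 8.45% of tail cells, passed the detection filter only through the culture, where it was higher. *Igfbp7*, at 185 against 556 CPM, was 3.01-fold (2.32 to 3.97) lower, 1 member against 15.5% of all genes. *Igfbp4* differed by 1.26 (1.09 to 1.44). The *Igfbp5* ratio rests on few cells: in the tail 1 cell, called as a doublet, gave 25 of the 32 UMIs, and without called doublets the ratio was 61.3, while in the culture 1 cell gave 34 of 102 UMIs. *Igfbp6* had 0 and 1 UMIs, too few for a ratio. Genes of tendon were higher in this cluster of the culture, *Scx* at 640 CPM against 23.3 CPM in the tail, *Dcn* at 106 against 1.4 CPM, and the list of 12 tendon markers at 1571 against 590 CPM in sum with 1 of them at 0 in each. The 5 endothelial markers summed to 3505 and 5382 CPM, all above 50 CPM. The part of these genes in the differences was not tested. At 3000 UMIs per cell, *Igfbp5* was found in 7 of 24 culture cells with a UMI of *Scx* and 7 of 23 without.

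**Figure D4:**
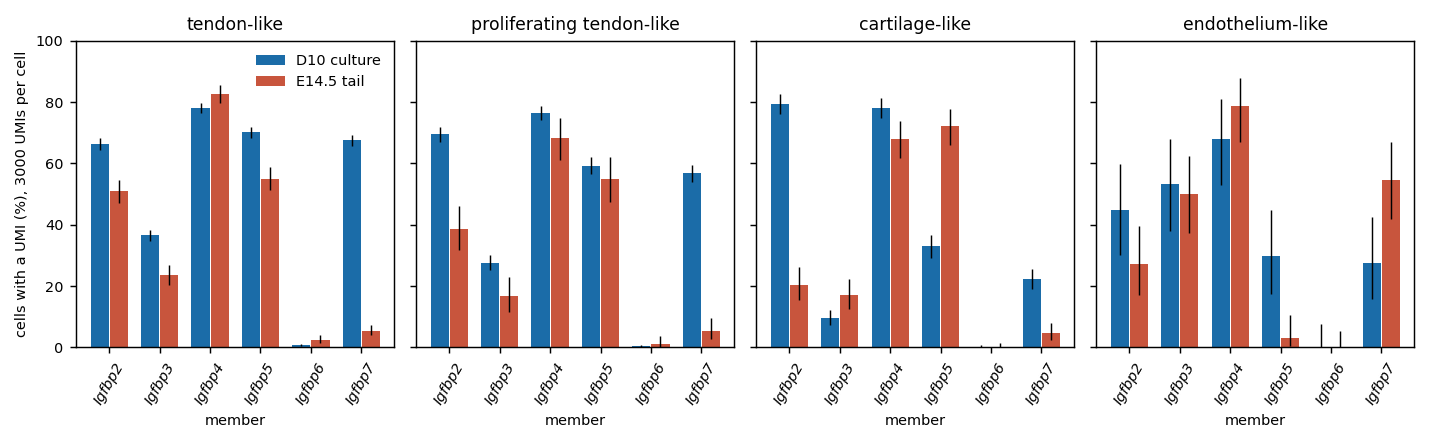
Share of cells with a UMI of each member after thinning to 3000 UMIs per cell, in 4 clusters of the D10 culture (blue) and the E14.5 tail (red), with 95% Clopper-Pearson intervals. *Igfbp7* was found in 67.5% of tendon-like cells of the culture and 5.46% of those of the tail, and *Igfbp2* in 79.4% and 20.4% of cartilage-like cells.

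Proliferating tendon-like cells differed by less than 2-fold from other tendon-like cells in the 5 members that passed the filter. In the culture the ratios of proliferating over other tendon-like cells ran from 0.669 for *Igfbp3* to 0.883 for *Igfbp2*, and in the tail from 0.532 for *Igfbp2* to 0.924 for *Igfbp5*. All 10 ratios were below 1, and none of the 5 members passed 2-fold in either library, although *Igfbp3* in the tail was at 0.469 after thinning. *Igfbp6*, which did not pass the filter, had 14 UMIs in proliferating and 72 in other tendon-like cells of the tail, a ratio of 0.455 (0.237 to 0.813). Among all genes 4.21% were at least 2-fold higher and 0.186% lower in the culture, and 5.47% higher and 2.76% lower in the tail. Among the 11235 genes with at least 100 UMIs in the culture, 388 were higher and 126 lower, in place of 340 and 15 among the 8077 that passed the detection filter. In the tail the median ratio of all genes was -0.11 on the log2 scale, and divided by it *Igfbp5* was at 0.999.

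To compare the members between D6 and D10, tendon-like cells at D10 were set beside somite-like cells of D6 PM. Whether the tendon-like cells arose from such somite-like cells was not tested. *Igfbp7* was at 825 against 5.26 CPM, 157-fold (111 to 229) higher, and *Igfbp3* at 252 against 4.77 CPM, 52.9-fold (36.8 to 79.1) higher. *Igfbp5* was 2.50-fold (2.41 to 2.59) higher. *Igfbp2*, with a ratio of 0.872, and *Igfbp4*, with 0.880, stayed within 2-fold. Thus 3 of 5 members were higher, against 9.88% of all 8934 genes tested, and none lower, against 10.8%. *Igfbp3*, in 45.7% of D10 and 3% of D6 cells, and *Igfbp7*, in 71.4% and 3.43%, passed the detection filter only through D10. They were higher there, so the count is a description. Divided by the median ratio of all genes, -0.17 on the log2 scale, the split of all called genes moved from 883 higher and 963 lower to 1055 and 742, with no change in the members' calls. At 3000 UMIs per cell, *Igfbp3* was found in 36.5% of D10 tendon-like and 0.990% of D6 somite-like cells, and *Igfbp4* in 78.1% and 83.7%. Markers of other cells, and the tendon marker *Dcn*, moved along with the members here. The 5 smooth muscle and pericyte genes summed to 1008 CPM in D10 tendon-like and 82.4 CPM in D6 somite-like cells, with none at 0, and the 5 genes of other mesenchyme and fibroblasts to 2452 and 285 CPM, again with none at 0. *Tagln* was at 499 against 5.26 CPM, *Acta2* at 400 against 28.6 CPM and *Dcn* at 1765 against 24.3 CPM. The part of these markers in the members' differences was not tested. The D6 PM table lists other genes than the 2 further tables, of which it shares 24738, so that its reference may differ, and no member overlaps a gene on its own strand in the GENCODE vM21 annotation.

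Cells held several members at once. At 3000 UMIs a tendon-like cell of the culture had UMIs of 3.19 members on average and 74.4% of them had at least 3, against 2.20 members and 38.8% in the tail. Cartilage-like cells had 2.22 and 1.82 members, pluripotent-like cells 1.09 in the culture and 0.910 in D6 PM, and somite-like cells 2.12. Nerve-like cells of the tail had 0.358 and erythroid-like cells of code 12 had 0.040, with no member in 96% of them. Within tendon-like cells of the culture, pairs of the 5 more abundant members were found together about as often as the product of their shares. *Igfbp5* and *Igfbp7* were in the same cell in 49.2% (47.2 to 51.1), against 47.4% if independent, and *Igfbp2* and *Igfbp3* in 26.7% (25.0 to 28.5), against 24.2%. In cartilage-like cells of the tail *Igfbp2* and *Igfbp3* shared 7.08% (4.18 to 11.1) of cells, against 3.49%.

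Other genes of the pathway were taken from a list of 35, of which 33 are in the tables and *Ins1* and *Ins2* are not listed. *Igf1*, the ligand made by mesenchyme, was at 293 CPM in tendon-like cells of the culture and 305 CPM in those of the tail. In cartilage-like cells it was at 77.3 and 16.3 CPM, 4.73-fold (3.52 to 6.47) higher in the culture, and against tendon-like cells it was 3.79-fold and 18.7-fold lower. *Igf1r*, the signaling receptor, had 122 and 184 CPM in tendon-like cells, and *Igf2r*, which clears IGF2, 330 and 306 CPM. *Igf2* had 161 and 124 CPM, but it overlaps *Gm49394* on the same strand in GENCODE vM21, and that gene is listed for the culture and the tail and not for D6 PM, so its levels are uncertain.

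Of the 7 listed genes for proteases of binding proteins and their inhibitors, 2 were at least 2-fold higher and 3 at least 2-fold lower in tendon-like cells of the culture than in those of the tail, against 5.76% and 13.6% of all genes. *Pappa*, *Pappa2* and *Stc1*, with 48, 19 and 108 UMIs in 2964 culture cells, passed the detection filter only through the tail. *Stc2*, with 5 UMIs in 685 tail cells, passed it only through the culture. Each was higher in the cluster that let it pass, so these counts are descriptions. *Pappa*, encoding PAPP-A, was at 2.89 CPM in tendon-like cells of the culture and 53.6 CPM in those of the tail, 18.5-fold lower, and *Pappa2* at 1.15 and 31.8 CPM, 27.8-fold lower. *Stc2*, which encodes an inhibitor of PAPP-A, was at 24.1 and 0.494 CPM, 48.7-fold (20.7 to 151) higher in the culture from 399 UMIs against 5. *Stc1*, the related inhibitor, was lower in the culture, at 6.51 and 16.7 CPM. *Htra3* (55.4 and 29.1 CPM) and *Adam12* (28.5 and 21.7 CPM), encoding further proteases, stayed within 2-fold there. *Htra1*, a secreted serine protease, was 2.04-fold higher in tendon-like and 7.77-fold (6.58 to 9.22) higher in cartilage-like cells of the culture. Proliferating tendon-like cells had *Pappa* 10.6-fold lower and *Stc2* 22.2-fold higher, and in cartilage-like cells *Stc2* was 28.5-fold (14.2 to 66.7) higher. *Stc2* was not particular to these clusters of the culture, with 45.7 CPM in pluripotent-like and 15.6 CPM in endoderm-like cells. The cluster of low UMI counts had 4.24 CPM and the one led by *Lyz2* and *Mmp3* had 0. Clusters of D6 PM had 11.9 to 41.1 CPM, and the highest level in the tail was 5.08 CPM, in muscle-like cells.

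**Figure D5:**
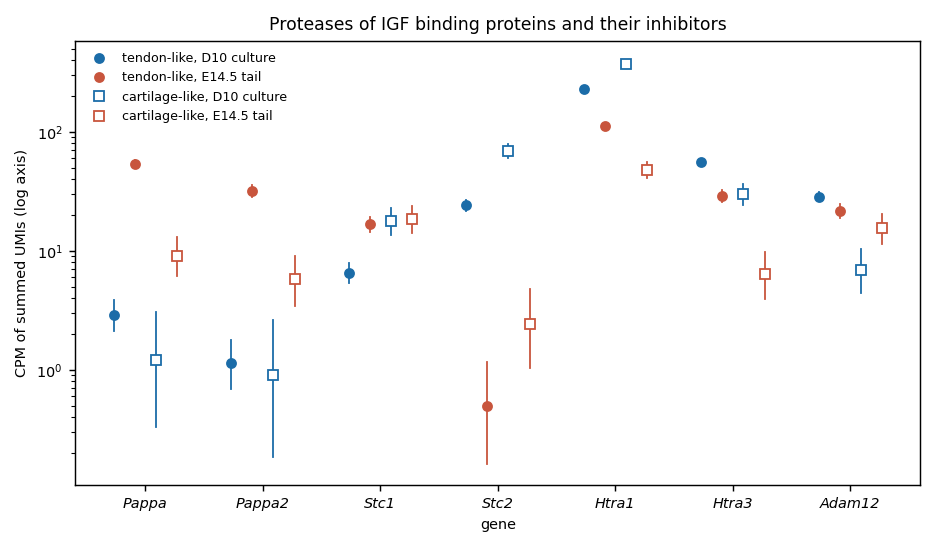
Level in CPM (log axis) of proteases of IGF binding proteins and of their inhibitors in tendon-like (filled) and cartilage-like cells (open) of the D10 culture (blue) and the E14.5 tail (red), with 95% Poisson intervals. *Pappa* was at 2.89 CPM in tendon-like cells of the culture and 53.6 CPM in those of the tail, and *Stc2* at 24.1 and 0.494 CPM.

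Over the whole list, 23 genes passed the detection filter between tendon-like cells of culture and tail, of which 4 were at least 2-fold higher in the culture (*Stc2*, *Htra1*, *Ctgf* and *Wisp1*) and 4 lower (*Pappa*, *Pappa2*, *Stc1* and *Nov*), against 5.76% and 13.6% of all genes. *Ctgf*, *Wisp1* and *Nov* encode matricellular proteins that share a domain with the binding proteins. *Nov* had no UMI in tendon-like cells of the culture against 621 in the tail, at least 339-fold lower with 3 UMIs for the cluster as the floor. It passed the detection filter only through the tail, where it was higher. The list's median ratio was 1.03, and that of all genes 0.867. Of the 19 genes tested between cartilage-like and tendon-like cells of the culture 2 were higher and 3 lower, against 1.54% and 3.36% of all genes, and of the 22 in the tail 2 were higher and 7 lower, against 3.65% and 6.28%. In endothelium-like cells 4 of 17 were higher and 4 lower in the culture, against 13.9% and 15.5% of all genes. *Esm1*, a marker of sprouting endothelium, was among the higher, at 200.1 against 45.2 CPM. From D6 somite-like to D10 tendon-like cells 11 of 20 were higher, the uncertain *Igf2* included, and 1 lower, against 9.88% and 10.8% of all genes. *Htra1*, *Htra3* and *Adam12* had 61, 7 and 3 UMIs in the 700 somite-like cells. They passed the detection filter only through D10, where they were higher. *Pappa*, with 48 UMIs in the 2964 D10 cells, passed it only through D6, where it was higher. The counts of listed genes are therefore descriptions. *Igf1* was 16.7-fold (13.8 to 20.4) higher and *Htra1* 22.9-fold (17.8 to 29.9) higher, and *Pappa* 7.22-fold lower.

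Genes with the pattern most like a member's were sought over 27 clusters of at least 50 cells in the 3 libraries, by Pearson's correlation of log2(CPM + 1) among 8459 genes. Clusters of a library share its depth and its free RNA, so that the coefficients are descriptions. *Nhsl2* followed *Igfbp4* at 0.93, *Fjx1* followed *Igfbp5* at 0.88, *Fam198b* followed *Igfbp7* at 0.88, *Piezo2* followed *Igfbp3* and *Mettl26* followed *Igfbp2* at 0.86, and *Col5a3* followed *Igfbp6* at 0.88. Among the members, *Igfbp3* was most like *Igfbp7*, at 0.73, and *Igfbp4*, at 0.68, and the neighboring genes *Igfbp2* and *Igfbp5* were at 0.32. Of the 18 genes in the 6 top-3 lists, 11 were in the lists again with 10 CPM added and 8 with clusters of at least 20 cells. With 10 CPM added, *Fam198b* and *Col5a3* stayed first for their members. *Fjx1*, *Nhsl2* and *Mettl26* then fell behind *Fzd2*, *Anxa6* and *Map3k4*, and *Piezo2* left the list of *Igfbp3*. With the smaller clusters *Fjx1* and *Piezo2* stayed first for their members, whereas *Nhsl2*, *Fam198b*, *Mettl26* and *Col5a3* left the lists. None of the 3 genes of *Igfbp2* was kept with these clusters, *Hook1* being first at 0.81.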

How the data were processed

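Counts were analysed as the authors deposited them, whole UMI counts per gene and cell with the cluster code of each cell and no normalization. The authors used Cell Ranger and Seurat 3.0 on 10x 3′ v3 libraries, ignored multi-mapping reads and removed cells above 7.5% mitochondrial transcripts and the bottom and top 2%. The genome reference is not given in the sources used here. UMIs were summed per cluster and library and divided by all UMIs of the same cells (CPM), with exact Poisson intervals, conditional binomial intervals of ratios and Clopper-Pearson intervals of shares, at 95%. A gene was called at 2-fold, with 3 UMIs as floor. The detection filter could be passed through only the cluster where a gene was higher, so counts of called genes are descriptions. Thinning used seed 1. Doublets were called by Scrublet in Scanpy 1.11.5 at an expected rate of 6% (1.48%, 0.439% and 1.36% of the culture, tail and D6 PM) and left out only as an alternative. Python 3.11.15, NumPy 2.4.6, SciPy 1.17.1 and Matplotlib 3.10.9 were used. Members and lists were chosen with earlier results of these data known. The named genes were the 6 members, the listed pathway genes and the 3 genes most like each member. Clusters under 50 cells were left out of orders. The split by *Scx* was chosen after the data had been seen.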

Additional observations from a re-analysis of the deposited data

Results flagged for a closer look

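The ratio of cartilage-like over tendon-like cells lay on opposite sides of 1 in the D10 culture and the E14.5 tail for 2 members. *Igfbp2* was at 1.22 in the culture and 0.238 in the tail. *Igfbp5* was at 0.235 in the culture and 1.61 in the tail. Each value comes from 1 library, and the difference between culture and tail was not tested.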

How the results depend on the processing

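The 6 alternatives were CPM without mitochondrial, ribosomal protein and hemoglobin genes, the mean of per-cell CPM, leaving out called doublets, leaving out cells under 1000 genes, division by the median ratio, and thinning. Of 311 ratios of members recomputed, 248 stayed within the counting interval of the reported ratio, 63 moved outside it, and no call changed direction. The cause was not tested where a value moved. The number of members called was as reported under all 6 alternatives, except that *Igfbp7* joined *Igfbp2* (2 members) between cartilage-like and tendon-like cells of the tail with the mean of per-cell CPM, and *Igfbp3* (1 member) was lower in proliferating than in other tendon-like cells of the tail after thinning. *Igfbp2* between D6 and D10 was at 1.04 by the mean of per-cell CPM, and *Igfbp4* between cartilage-like and tendon-like cells of the culture at 0.964 after thinning. Thinned to 3000 UMIs, where fewer genes are tested, the pathway genes called were 3 for cartilage-like over tendon-like cells of the culture. They were 5 and 6 for tendon-like and proliferating tendon-like cells of culture over tail. Without thinning they were 2 higher and 3 lower of 19, 4 and 4 of 23, and 6 and 4 of 23. Among all genes in these comparisons, thinning gave 89 higher and 162 lower of 5363, 458 and 564 of 5972, and 435 and 501 of 5924. The genes called were then 483 for cartilage-like over tendon-like and 609 for proliferating over other tendon-like cells of the tail, 1022, 936 and 1009 for tendon-like, proliferating tendon-like and cartilage-like cells of culture over tail, and 1163 for D10 over D6. With genes of at least 100 UMIs, 734 were called for cartilage-like over tendon-like cells of the culture and 727 for endothelium-like cells. At 4-fold the counts were 92 and 365 for cartilage-like over tendon-like cells of culture and tail, 139 and 334 for proliferating over other tendon-like cells, 740, 769, 516 and 882 for tendon-like, proliferating tendon-like, cartilage-like and endothelium-like cells of culture over tail, and 700 for D10 over D6. No paired analysis was possible because each group has 1 library. *Igfbp6* had 1 UMI or none in both clusters of 2 comparisons, too few for a ratio.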
